A study of Homo sapiens with 24 samples.

Results

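A set of 10 transcription factor genes of myeloid and blood stem cells was followed in MV4-11 and KG-1a cells, untreated or exposed to an adenosine analog, either 8AA (8-amino-adenosine) or 8CA (8-chloro-adenosine). The genes were taken by symbol, SPI1, CEBPA, RUNX1, GATA2, GFI1, MYB, IRF8, ERG, FLI1 and LMO2, and all 10 had a row among the 23354 genes of the read count table. The series held 24 RNA-seq libraries in 12 groups of 2, made from wild-type MV4-11 or KG-1a cells that were left untreated, given 1 µM 8CA or given 1 µM 8AA, and taken at 8 h or 24 h. MV4-11 is a line from an acute monocytic leukemia with an MLL fusion and an internal FLT3 duplication, and KG-1a is an undifferentiated, CD34-positive subline of the KG-1 leukemia line, so each stands for a single leukemia. 8CA carries a chlorine and 8AA an amino group at the same position of the adenine ring, and both enter RNA after phosphorylation in the cell. Nothing in the labels says that the 2 libraries of a group came from separate cultures, so p-values measure the spread between these libraries, which may be technical.

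These factors set the identity of blood cells. GATA2, RUNX1, ERG, FLI1, LMO2 and MYB act together in stem and early progenitor cells, and many of their sites are shared. SPI1, which encodes PU.1, CEBPA and IRF8 drive the monocyte and granulocyte lineages, and GFI1 encodes a repressor that favours the granulocyte over the monocyte fate. PU.1 and GATA factors bind and oppose each other, and loss of CEBPA or PU.1 activity blocks differentiation in acute myeloid leukemia.

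The libraries held between 18633963 and 24520078 counted reads, which limits precision only for genes with few reads. MV4-11 libraries had LYZ at 2665 to 3773 CPM (counts scaled to the library total after edgeR's TMM correction, as are all CPM values here), FLT3 at 426 to 621 CPM and CD33 at 105 to 141 CPM, with CD34 and CD14 at 0 to 4 and 0 to 5 reads. KG-1a libraries had CD34 at 325 to 629 CPM and PTPRC at 688 to 788 CPM, but CD33, LYZ, FLT3 and CD14 had at most 30 reads each. Of 10 markers of other cell types, the T cell genes CD3D (174 to 264 CPM) and CD3E (22.2 to 78.3 CPM) were measured in KG-1a, whereas both were at 0 in MV4-11. The summed level of those 10 markers in KG-1a was nearly all from CD3D and CD3E. It was 288 to 298 CPM without drug, 210 to 219 CPM with 8CA at 24 h and 261 to 341 CPM in the other treated groups. In MV4-11 the sum was 18.5 to 30.3 CPM, most of it from PECAM1, which some myeloid cells express. The KG-1a libraries with 8AA at 24 h stood apart, since their counts differed by a chi-square of 12.3 per degree of freedom, against 1.43 to 5.20 in the other pairs. Calls that rest on them are therefore given without each of the 2 libraries too. In bulk RNA, fewer cells that express a gene and less of its RNA per cell cannot be told apart.

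Without drug, the lines differed most in IRF8, ERG, GATA2 and SPI1. IRF8, GFI1, CEBPA, LMO2, MYB and SPI1 were higher in MV4-11 and GATA2, ERG and FLI1 were higher in KG-1a at both times, while RUNX1 was at nearly the same level in both. At 8 h, 6 of the 10 genes were higher and 3 lower in MV4-11, and at 24 h 7 were higher and 3 lower (adjusted p below 0.05, edgeR's quasi-likelihood test on all 24 libraries with the Benjamini-Hochberg correction). Of the 14055 genes in that fit, 40.1% were called higher and 42.1% lower in MV4-11 at 8 h, and 41.0% higher and 41.0% lower at 24 h, so a call alone sets these genes apart in no way. The median absolute log2 difference was 1.96 for the 10 genes and 0.80 for all genes at 8 h, and 2.01 and 0.77 at 24 h. IRF8 (0 to 1 reads per KG-1a library) and ERG (0 to 6 per MV4-11 library) entered this fit only through the line where they were high. The 10 genes were also chosen with earlier results of these data known, so these medians are a description and not a test.

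IRF8 (chr16:85932774-85956211) encodes the factor of monocyte and dendritic cell precursors. The untreated MV4-11 libraries had 1090 and 1063 CPM at 8 h and 929 and 919 CPM at 24 h, and the untreated KG-1a libraries had 0 and 1 reads at 8 h and 1 and 0 reads at 24 h. Summed over the libraries of a time, this was a ratio of 43073 at 8 h (95% counting interval 7730 to 1701340) and 36795 at 24 h (6604 to 1453370), and these intervals cover counting error only. Over all 12 KG-1a libraries, IRF8 had at most 1 read per library, so its response to the drugs could not be tested there.

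ERG (chr21:39739183-40033704), an ETS factor of stem cells, had the opposite pattern. It was at 69.7 and 72.2 CPM in KG-1a at 8 h and at 79.8 and 83.5 CPM at 24 h, against 2 and 1 reads and 6 and 1 reads in the untreated MV4-11 libraries. The ratio of KG-1a over MV4-11 was 957 (95% counting interval 327 to 4643) at 8 h and 493 (239 to 1227) at 24 h.

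GATA2 (chr3:128198265-128212030), the zinc finger factor of stem and progenitor cells, was also a gene of KG-1a. Its untreated levels there were 137 and 130 CPM at 8 h and 113 and 118 CPM at 24 h. In MV4-11 it was at 0.979 and 0.903 CPM (19 reads in each library) and at 1.06 and 1.39 CPM (22 and 30 reads). KG-1a was 141-fold higher at 8 h and 93.2-fold higher at 24 h (edgeR adjusted p = 2.08e-25 and 4.82e-25).

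SPI1 (chr11:47376409-47400127), which encodes PU.1, ran the other way. The MV4-11 libraries had 280 and 273 CPM at 8 h and 262 and 253 CPM at 24 h, and the KG-1a libraries 7.81 and 6.41 CPM and 5.95 and 7.25 CPM. MV4-11 was 39.0-fold higher at 8 h and 39.1-fold higher at 24 h (edgeR adjusted p = 1.19e-24 and 1.62e-24). SPI1 overlaps SLC39A13 on the opposite strand, and whether the counting used strand is not given in the sources used here. SLC39A13 had 303 to 688 reads in the KG-1a libraries and SPI1 only 123 to 161, so the level of SPI1 in KG-1a is uncertain.

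The remaining genes differed less. GFI1 (chr1:92940318-92952433), the repressor that recruits the demethylase KDM1A, was 4.30-fold higher in MV4-11 at 8 h and 5.10-fold at 24 h, CEBPA (chr19:33790840-33793430) 3.51-fold and 3.18-fold, LMO2 (chr11:33880123-33913836) 2.26-fold and 2.52-fold, and MYB (chr6:135502453-135540311) 1.60-fold and 1.78-fold. The edgeR adjusted p-values of GFI1, CEBPA, LMO2 and MYB lay between 1.56e-21 and 2.36e-14. FLI1 (chr11:128556430-128683162), the ETS relative of ERG, was 2.27-fold and 2.19-fold higher in KG-1a (edgeR adjusted p = 5.70e-18 and 1.20e-17). RUNX1 (chr21:36160098-37357047), the DNA-binding subunit of core binding factor, was at 481 and 457 CPM in MV4-11 and 471 and 479 CPM in KG-1a at 8 h, a log2 difference of -0.02 (95% interval -0.13 to 0.10, edgeR adjusted p = 0.782). At 24 h RUNX1 was at 493 and 510 CPM against 459 and 441 CPM, a log2 difference of 0.15 ± 0.0562 (SE; edgeR adjusted p = 0.0148), which was no longer called with scaling by library size alone (0.05, where the median of all genes moved by -0.11) or without untreated replicate B of 24 h of either line (0.13 in both fits). All coordinates are those of the count table, whose gene ends did not match GRCh38.

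Per kilobase of exon, which allows genes to be set against each other, IRF8 was the highest of the 10 genes in MV4-11 and MYB in KG-1a. In untreated MV4-11 at 8 h the order was IRF8 (294 ± 5.13 CPM per kb, SD, n = 2), SPI1 (134 ± 2.67), MYB (130 ± 0.837), CEBPA (109 ± 4.62), GFI1 (65.4 ± 3.95), LMO2 (52.5 ± 1.52), RUNX1 (39.9 ± 1.46), FLI1 (24.7 ± 0.949), GATA2 (0.251 ± 0.0143) and ERG (0.00931 ± 0.00485). The order at 24 h was the same except that MYB (131 ± 0.996 CPM per kb) stood above SPI1 (125 ± 3.14). In KG-1a at 8 h it was MYB (81.1 ± 0.127 CPM per kb), FLI1 (56.2 ± 0.581), RUNX1 (40.4 ± 0.511), GATA2 (35.5 ± 1.44), CEBPA (31.2 ± 0.113), LMO2 (23.2 ± 0.746), GFI1 (15.2 ± 0.0735), ERG (8.76 ± 0.217), SPI1 (3.44 ± 0.480) and IRF8 (0.00644 ± 0.00910). The order of means was the same at 24 h, but there CEBPA (30.2 ± 3.31 CPM per kb) and GATA2 (30.6 ± 0.906) overlapped between libraries.

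**Figure D1:**
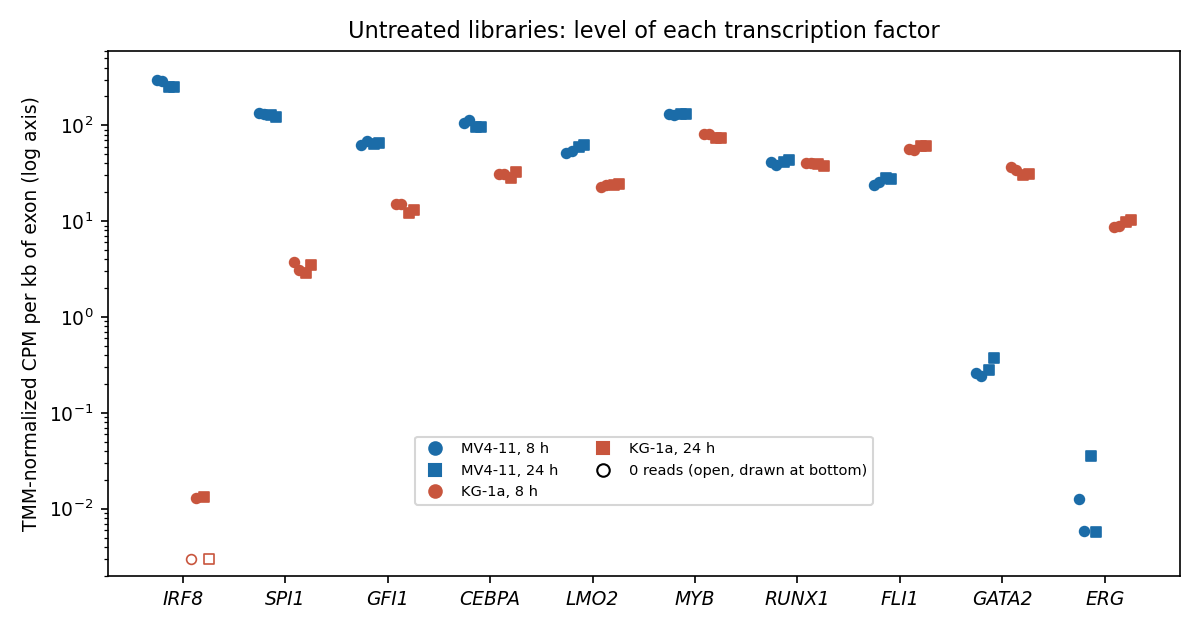
Level of each gene in the untreated libraries, as TMM-normalized CPM per kilobase of exon on a log axis, with a point per library, circles for 8 h and squares for 24 h. IRF8 and SPI1 sit far higher in MV4-11, GATA2 and ERG far higher in KG-1a, and the RUNX1 points of the lines lie side by side.

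A few of these genes differed between the untreated libraries of 8 h and 24 h. Whether time in culture or another difference between these libraries lay behind this was not tested. In MV4-11, LMO2 (log2 change from 8 h to 24 h 0.21 ± 0.0466) and FLI1 (0.17 ± 0.0483) were higher at 24 h and IRF8 (-0.22 ± 0.0392) and CEBPA (-0.19 ± 0.0517) lower, with edgeR adjusted p = 0.0143, 0.0458, 0.00408 and 0.0458, against 5.54% of 12800 genes called. All 4 calls in MV4-11 were lost when untreated replicate B of 24 h was left out, with the log2 changes at 0.18 for LMO2, 0.18 for FLI1, -0.21 for IRF8 and -0.18 for CEBPA, and those of FLI1 and CEBPA were lost without any of the 4 untreated libraries. LMO2 was also lost without replicate A of 8 h (0.18). In KG-1a, ERG was higher (0.22 ± 0.0529) and GFI1 lower (-0.25 ± 0.0637) at 24 h, with edgeR adjusted p = 0.0313 and 0.0389, against 4.45% of 12711 genes called. Both calls in KG-1a were lost when any of the 4 untreated libraries was left out, with 0.18 to 0.25 for ERG and -0.30 to -0.19 for GFI1, and neither passed by DESeq2 (0.20 and -0.26). Each drug was therefore compared with the untreated libraries of its own time.

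For the drug comparisons each line was fitted on its own, over its 12 libraries, and CPM values from here on are scaled within the line. ERG in MV4-11 and IRF8 in KG-1a had too few reads to be tested, so 9 of the 10 genes were tested in each line. In MV4-11, FLI1 alone passed with 8CA at 8 h, where it rose, and of all genes 4.58% rose and 5.77% fell. With 8AA at 8 h 1 of 9 rose and 1 fell, against 13.6% and 15.6% of all genes. At 24 h, 3 rose and 4 fell with 8CA (21.2% and 22.7% of all genes), and 2 passed with 8AA, both lower (13.9% of all genes rose and 15.3% fell). In KG-1a 0 of 9 genes passed edgeR's test with 8CA at 8 h (of all genes 0.7% rose and 0.181% fell), although 4 had an unadjusted p below 0.05 and 1, CEBPA, passed by DESeq2. In the other KG-1a comparisons, 2 rose and 2 fell with 8AA at 8 h, against 16.7% and 18.0% of all genes. With 8CA at 24 h 2 rose and 1 fell (23.4% and 24.0% of all genes), and with 8AA at 24 h 4 rose and 1 fell (25.4% and 26.6%). The summed level of the 10 markers of other cell types was lower in the KG-1a libraries with 8CA at 24 h than in the untreated ones, as given above, and its part in the results of that group was not tested. Most of these changes were small. The median absolute log2 change of the tested genes was 0.06 to 0.18 in the MV4-11 comparisons and 0.03 to 0.25 in KG-1a, against 0.12 to 0.21 and 0.08 to 0.25 over all genes.

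**Figure D2:**
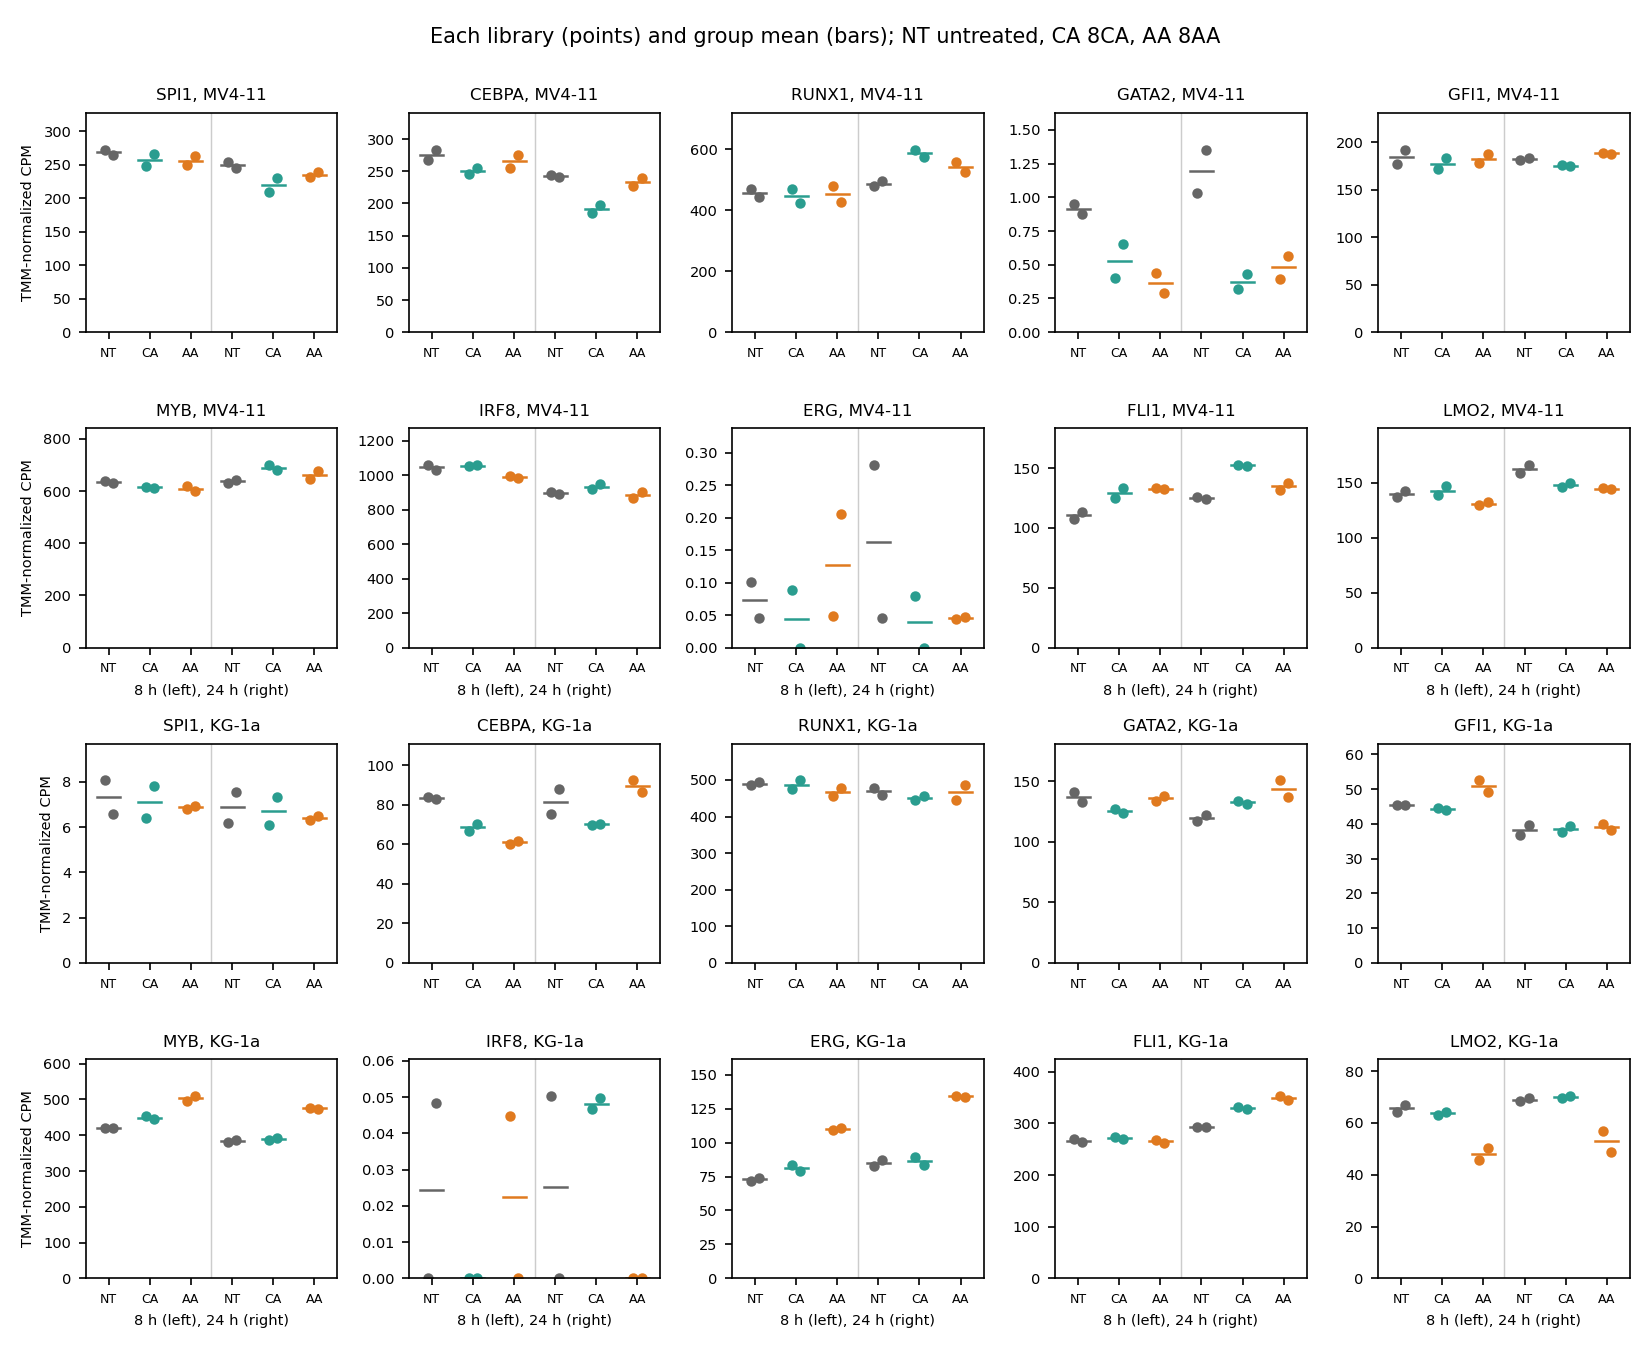
TMM-normalized CPM of the 10 genes in every library of MV4-11 (upper rows) and KG-1a (lower rows), untreated (NT), with 8CA (CA) or with 8AA (AA), at 8 h on the left and 24 h on the right of each panel, with bars at the mean of 2 libraries. ERG in MV4-11 and IRF8 in KG-1a rest on 0 to 6 reads and 0 to 1 reads per library, and in KG-1a the 8AA libraries lie above the untreated ones for ERG and MYB and below them for LMO2 at both times.

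ERG showed the largest change in KG-1a, and only 8AA moved it past the threshold. At 8 h it was at 71.9 and 74.3 CPM without drug, 83.7 and 79.4 CPM with 8CA, and 109 and 110 CPM with 8AA. At 24 h it was at 83.1 and 87.0 CPM without drug, 89.1 and 83.6 CPM with 8CA, and 135 and 134 CPM with 8AA. The 8AA libraries were above every other library of their time, and those with 8CA overlapped the untreated ones at 24 h but not at 8 h. With 8AA the log2 change was 0.59 ± 0.0517 at 8 h and 0.66 ± 0.0508 at 24 h (edgeR adjusted p = 7.85e-07 and 5.07e-08). Leaving out either 8AA library of 24 h gave 0.65 and 0.66 for ERG. With 8CA the log2 change of ERG was 0.16 (95% interval 0.04 to 0.27, edgeR adjusted p = 0.203) at 8 h and 0.02 (-0.09 to 0.13, edgeR adjusted p = 0.754) at 24 h.

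MYB, which keeps progenitors proliferating, moved with ERG in KG-1a. At 8 h it was at 420 CPM in both untreated libraries, 454 and 445 CPM with 8CA, and 496 and 511 CPM with 8AA. The 24 h libraries had 382 and 387 CPM without drug, 385 and 392 CPM with 8CA, and 476 and 474 CPM with 8AA. The 8AA libraries again stood above all others of their time. The rise with 8AA was 0.26 ± 0.0388 on the log2 scale at 8 h and 0.31 ± 0.0389 at 24 h (edgeR adjusted p = 9.70e-05 and 8.73e-06), and without either 8AA library of 24 h it was 0.30 and 0.31. In MV4-11, MYB was at 633 and 641 CPM without drug at 24 h and at 701 and 679 CPM with 8CA, a rise of 0.11 ± 0.0404 (edgeR adjusted p = 0.0304). This last call was lost when 8CA replicate A (log2 change 0.09) or either untreated library of 24 h (0.11 and 0.12) was left out.

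LMO2, the LIM-only protein that bridges GATA and bHLH factors, fell in KG-1a with 8AA. Its levels at 8 h were 64.3 and 67.1 CPM without drug, 63.2 and 64.2 CPM with 8CA, and 45.8 and 50.2 CPM with 8AA. At 24 h the untreated libraries had 68.4 and 69.6 CPM, those with 8CA 69.6 and 70.5 CPM, and those with 8AA 57.0 and 48.8 CPM. The 8AA libraries were the lowest at each time, and at 24 h they lay further apart from each other than those of any other KG-1a group. LMO2 fell by 0.45 on the log2 scale at 8 h (SE 0.0694) and by 0.38 at 24 h (SE 0.0688), with edgeR adjusted p = 0.000132 and 0.000248. Without 8AA replicate A of 24 h the log2 change was -0.50, and without replicate B it was -0.28, and the call held in both fits. In MV4-11, LMO2 was at 159 and 166 CPM without drug at 24 h, 146 and 150 CPM with 8CA, and 145 CPM in both libraries with 8AA. LMO2 fell by 0.14 ± 0.0462 with 8CA and by 0.17 ± 0.0464 with 8AA on the log2 scale there (edgeR adjusted p = 0.0260 and 0.0132). The 8CA call for LMO2 was lost by DESeq2's Wald test, with no filter, with library size or upper-quartile scaling, and without 3 of the 4 libraries, and the 8AA call was lost with library size scaling and without untreated replicate B, with log2 changes from -0.16 to -0.08 for 8CA and from -0.20 to -0.12 for 8AA over all alternatives.

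CEBPA, which encodes the factor needed for granulocytes, fell with 8CA at 24 h in both lines, and with 8AA at 8 h in KG-1a. In MV4-11 at 24 h it was at 244 and 241 CPM without drug, 185 and 198 CPM with 8CA, and 226 and 239 CPM with 8AA. Only the 8CA change passed the test, where CEBPA fell by 0.34 ± 0.0520 on the log2 scale (edgeR adjusted p = 8.79e-05), while 8AA gave -0.06 (95% interval -0.17 to 0.05). In KG-1a at 8 h CEBPA was at 83.7 and 83.0 CPM without drug, 66.9 and 70.4 CPM with 8CA, and 60.4 and 61.6 CPM with 8AA. All treated libraries lay below the untreated ones at that time. CEBPA fell by 0.45 ± 0.0662 with 8AA (edgeR adjusted p = 9.27e-05), and its log2 change of -0.28 ± 0.0662 with 8CA did not pass (edgeR adjusted p = 0.0596). At 24 h CEBPA was at 75.3 and 87.9 CPM without drug, 69.6 and 70.5 CPM with 8CA, and 92.4 and 86.3 CPM with 8AA in KG-1a. With 8CA CEBPA fell by 0.22 ± 0.0661 (edgeR adjusted p = 0.0126), and this call was lost without either 8CA library (-0.21 and -0.23) or untreated replicate B (-0.11). With 8AA CEBPA stood at 0.13 (95% interval -0.0047 to 0.27, edgeR adjusted p = 0.0973) at 24 h, at 0.08 without replicate A of that group, and at 0.18 and called without replicate B.

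FLI1 was the gene that rose in most arms. In MV4-11 it was at 108 and 114 CPM without drug at 8 h, 125 and 133 CPM with 8CA, and 134 and 132 CPM with 8AA. At 24 h it was at 126 and 124 CPM without drug, 153 and 152 CPM with 8CA, and 132 and 138 CPM with 8AA. All treated libraries lay above the untreated ones of their time. FLI1 rose by 0.22 ± 0.0483 with 8CA and 0.26 ± 0.0482 with 8AA at 8 h, and by 0.29 ± 0.0473 with 8CA at 24 h (edgeR adjusted p = 0.00949, 0.000752 and 0.000174). Its log2 change of 0.11 ± 0.0477 with 8AA at 24 h did not pass (edgeR adjusted p = 0.0974), and the 8CA call at 8 h was lost without 8CA replicate B or untreated replicate A (0.16 and 0.18). In KG-1a FLI1 did not move at 8 h past the threshold (log2 changes of 0.03 with 8CA and -0.01 with 8AA). At 24 h it was at 293 and 294 CPM without drug, 331 and 328 CPM with 8CA, and 354 and 346 CPM with 8AA, again without overlap. These were rises of 0.17 ± 0.0398 and 0.25 ± 0.0397 (edgeR adjusted p = 0.00267 and 6.60e-05), and without either 8AA library the latter was 0.23 and 0.27. SENCR, which overlaps FLI1 on the opposite strand, had at most 176 reads in any library.

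GATA2 moved in opposite directions in the lines at 24 h. In KG-1a at 8 h it was at 142 and 133 CPM without drug, 127 and 124 CPM with 8CA, and 134 and 138 CPM with 8AA, with no call. At 24 h it was at 117 and 122 CPM without drug, 134 and 132 CPM with 8CA, and 151 and 137 CPM with 8AA, all treated libraries above the untreated ones. GATA2 rose by 0.15 ± 0.0543 with 8CA and 0.26 ± 0.0539 with 8AA (edgeR adjusted p = 0.0338 and 0.000715). The 8AA rise was 0.19 without replicate A and 0.33 without replicate B of that group, called in both fits. The 8CA rise was lost by DESeq2's Wald test, in the fit of the 24 h libraries alone, and without any of the 4 libraries (0.10 to 0.18). In MV4-11, where GATA2 had 19 and 19 reads without drug at 8 h, it had 9 and 13 reads with 8CA and 9 and 7 reads in the 8AA libraries. The 24 h libraries had 22 and 30 GATA2 reads without drug, 8 and 10 with 8CA, and 9 and 12 with 8AA. Every treated library thus had fewer GATA2 reads than any untreated library. GATA2 fell by 1.33 ± 0.398 on the log2 scale with 8AA at 8 h, by 1.66 ± 0.361 with 8CA at 24 h and by 1.31 ± 0.350 with 8AA at 24 h (edgeR adjusted p = 0.0194, 0.00155 and 0.0107), and its change of -0.81 ± 0.371 with 8CA at 8 h did not pass (edgeR adjusted p = 0.182). With these few reads the 8AA calls were lost without 8AA replicate B or either untreated library at 8 h (-1.40 to -1.04), and without 8AA replicate A or untreated replicate B at 24 h (-1.08 and -1.10).

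SPI1 and RUNX1 passed the test against untreated cells only in MV4-11 with 8CA at 24 h. In MV4-11 at 24 h SPI1 was at 254 and 246 CPM without drug, 210 and 231 CPM with 8CA, and 232 and 239 CPM with 8AA. It fell by 0.18 ± 0.0529 with 8CA (edgeR adjusted p = 0.0105), which was lost without 8CA replicate A or untreated replicate A (-0.11 and -0.15). RUNX1 was at 478 and 496 CPM without drug, 600 and 575 CPM with 8CA, and 558 and 524 CPM with 8AA in the same libraries. It rose by 0.27 ± 0.0603 with 8CA (edgeR adjusted p = 0.00194), and its 0.15 ± 0.0604 with 8AA did not pass (edgeR adjusted p = 0.0714). At 8 h neither gene passed the test in MV4-11, with log2 changes between -0.07 and -0.01. In KG-1a SPI1 had log2 changes between -0.10 and -0.03 and RUNX1 between -0.07 and -0.01, and none passed by edgeR or DESeq2 or had an unadjusted p below 0.05.

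IRF8 in MV4-11 and GFI1 in both lines passed the test in none of the drug comparisons, by edgeR or DESeq2, and 1 of these 12 comparisons, that of GFI1 with 8AA at 8 h in KG-1a, had an unadjusted p below 0.05. IRF8 in MV4-11 was at 1061 and 1033 CPM without drug, 1056 and 1058 CPM with 8CA, and 998 and 985 CPM with 8AA at 8 h. At 24 h it was at 902 and 894 CPM without drug, 921 and 947 CPM with 8CA, and 866 and 902 CPM with 8AA. The 95% intervals of the 4 log2 changes of IRF8 together ran from -0.16 to 0.14. GFI1 was at 171 to 192 CPM over the 12 MV4-11 libraries, with log2 changes from -0.06 to 0.05. In KG-1a GFI1 was at 45.4 and 45.6 CPM without drug and 52.6 and 49.2 CPM with 8AA at 8 h, a log2 change of 0.16 ± 0.0611 (edgeR adjusted p = 0.0519), and its other changes in that line were between -0.04 and 0.03. LOC100133331 overlaps GFI1 on the same strand and had 88 to 249 reads per library, so reads may have been split between them.

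**Figure D3:**
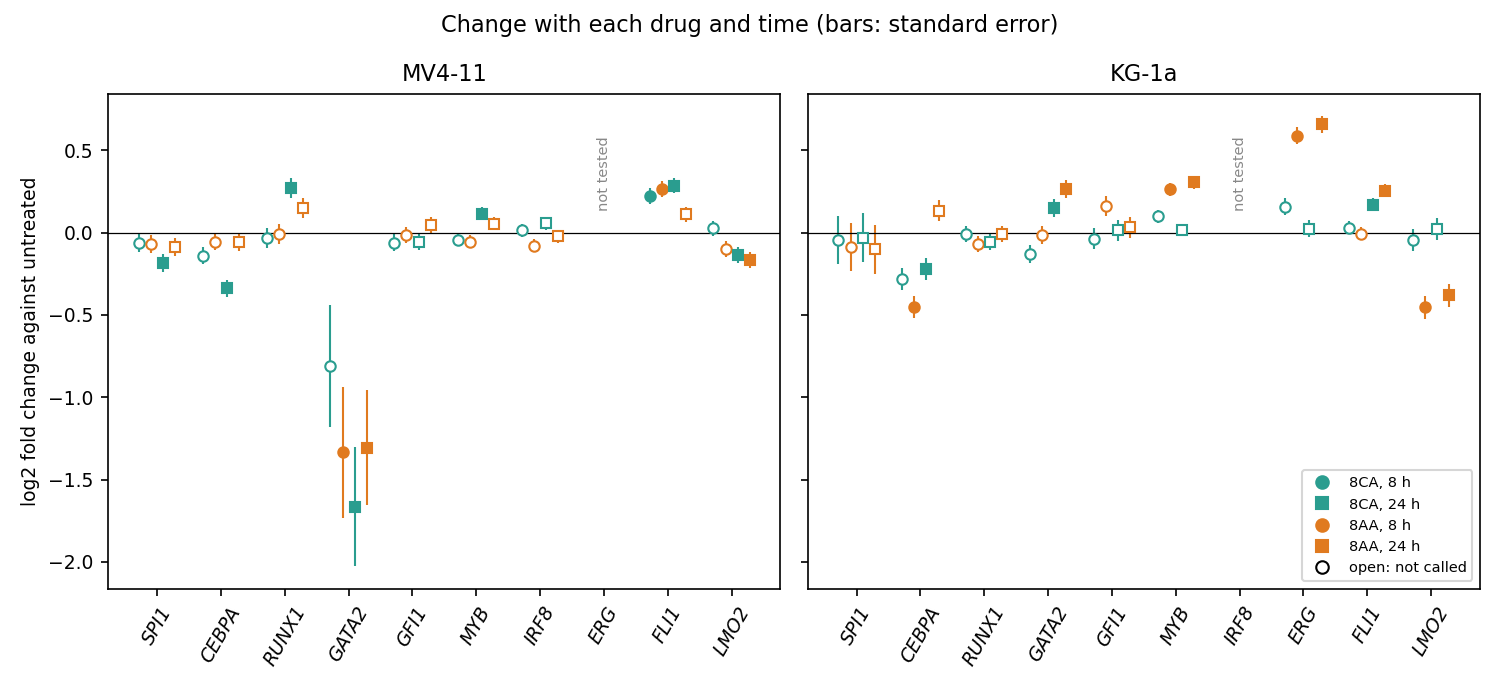
Log2 fold change of each gene against the untreated libraries of the same line and time, with standard error bars, for 8CA and 8AA at 8 h (circles) and 24 h (squares), filled where the adjusted p was below 0.05. GATA2 in MV4-11 lies lowest with the widest bars, ERG in KG-1a with 8AA lies highest at 0.59 and 0.66, and most other points lie within 0.5 of 0.

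ERG, MYB, GATA2 and FLI1 were thus the 4 genes that rose with 8AA at 24 h in KG-1a. Symbols matched RefSeq start-site windows (GRCh38.p14) in 7 of 10 cases, and those of SPI1, FLI1 and LMO2 were not analysed here. For each matched gene a single window was searched, any other start site was not, and which start these cells use is not known. The 250 bases before that start of ERG (chr21:38660668-38660917, minus strand), MYB (chr6:135181058-135181307, plus strand) and GATA2 (chr3:128493202-128493451, minus strand) are shown because these genes rose together with 8AA at 24 h in KG-1a, a choice made after their values were seen. They are written 5′ to 3′ along the gene, with matches to the GC box GGGCGG on either strand in capitals.
ERG: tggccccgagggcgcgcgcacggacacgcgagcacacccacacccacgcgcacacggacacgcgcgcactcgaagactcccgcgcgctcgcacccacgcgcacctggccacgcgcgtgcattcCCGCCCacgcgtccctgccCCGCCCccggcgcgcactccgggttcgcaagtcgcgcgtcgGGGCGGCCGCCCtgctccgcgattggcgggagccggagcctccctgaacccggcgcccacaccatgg
MYB: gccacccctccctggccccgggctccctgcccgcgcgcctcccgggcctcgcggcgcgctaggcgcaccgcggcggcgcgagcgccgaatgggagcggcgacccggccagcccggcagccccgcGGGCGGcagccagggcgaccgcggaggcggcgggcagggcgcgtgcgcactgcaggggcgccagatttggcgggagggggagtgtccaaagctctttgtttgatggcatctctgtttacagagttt
GATA2: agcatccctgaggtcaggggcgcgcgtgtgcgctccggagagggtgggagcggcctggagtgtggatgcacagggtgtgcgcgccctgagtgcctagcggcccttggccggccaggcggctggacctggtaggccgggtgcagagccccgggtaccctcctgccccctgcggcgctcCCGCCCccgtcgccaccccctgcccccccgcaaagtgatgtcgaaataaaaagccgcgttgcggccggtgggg

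All 3 windows are rich in G and C (77.2%, 75.6% and 72.8% for ERG, MYB and GATA2, against a median of 58% over 35116 windows of this length). The GC box, the site of SP family factors, was found 4 times in ERG and 1 time in each of MYB and GATA2, and 42.6% of all windows hold it. The other motifs searched on both strands were the ETS core CCGGAA, the PU.1 core GAGGAA, the GATA site AGATAA, the RUNX site TGTGGT and the C/EBP site TTGCNNAA, which 14.5%, 23.6%, 9.17%, 11.0% and 9.05% of all windows hold. None of these 5 was found in the ERG, MYB or GATA2 window. Among the other 4 windows, CEBPA and RUNX1 held the GC box 2 times each and GFI1 held it 1 time, so it was not particular to the 3 genes shown. RUNX1 also held CCGGAA and GAGGAA, GFI1 held CCGGAA and IRF8 held TGTGGT, 1 match of each.

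The compounds were compared directly at 1 µM and the same time, in 4 comparisons. In MV4-11 at 8 h 0 of 9 genes passed edgeR's test of 8AA against 8CA (6.66% of all genes did), 0 passed by DESeq2, and IRF8 and LMO2 had an unadjusted p below 0.05. Apart from GATA2, whose interval was -1.48 to 0.43, the 95% intervals there lay between -0.22 and 0.19. At 24 h CEBPA was higher with 8AA than with 8CA (0.28 ± 0.0521, edgeR adjusted p = 0.00132) and FLI1 lower (-0.18 ± 0.0472, edgeR adjusted p = 0.0152), against 21.2% of all genes. The FLI1 difference was lost without replicate A of 8AA (-0.15) or of 8CA (-0.18).

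In KG-1a 4 of 9 genes differed at each time, against 30.4% of all genes at 8 h and 42.0% at 24 h. ERG was higher with 8AA than with 8CA by 0.43 ± 0.0511 at 8 h and 0.63 ± 0.0505 at 24 h (edgeR adjusted p = 1.84e-05 and 1.11e-07). MYB was higher by 0.16 ± 0.0387 and 0.29 ± 0.0388 (edgeR adjusted p = 0.00487 and 2.62e-05), and LMO2 lower, with log2 differences of -0.41 ± 0.0693 and -0.40 ± 0.0683 (edgeR adjusted p = 0.000421 and 0.000229). The MYB call at 8 h was lost without replicate B of 8AA (0.14) or of 8CA (0.15). GFI1 differed at 8 h (0.20 ± 0.0610, edgeR adjusted p = 0.0226; lost by DESeq2 at 0.19, without 8AA replicate A at 0.15 and without either 8CA library at 0.21 and 0.19) and CEBPA at 24 h (0.35 ± 0.0651, edgeR adjusted p = 0.000472). Without either 8AA library of 24 h the differences were 0.63 and 0.64 for ERG, 0.29 in both fits for MYB, -0.52 and -0.30 for LMO2, and 0.30 and 0.40 for CEBPA, all still called. The 95% intervals of the 8AA minus 8CA difference for RUNX1 in KG-1a were -0.16 to 0.04 at 8 h and -0.05 to 0.15 at 24 h, where the difference of 0.05 became 0.11 and called without 8AA replicate A and -0.01 without replicate B. Those of SPI1 were wider, -0.35 to 0.26 and -0.38 to 0.24. The summed level of the 10 markers of other cell types was 272 to 341 CPM in the KG-1a libraries with 8AA and 210 to 265 CPM in those with 8CA, and its part in these differences was not tested.

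**Figure D4:**
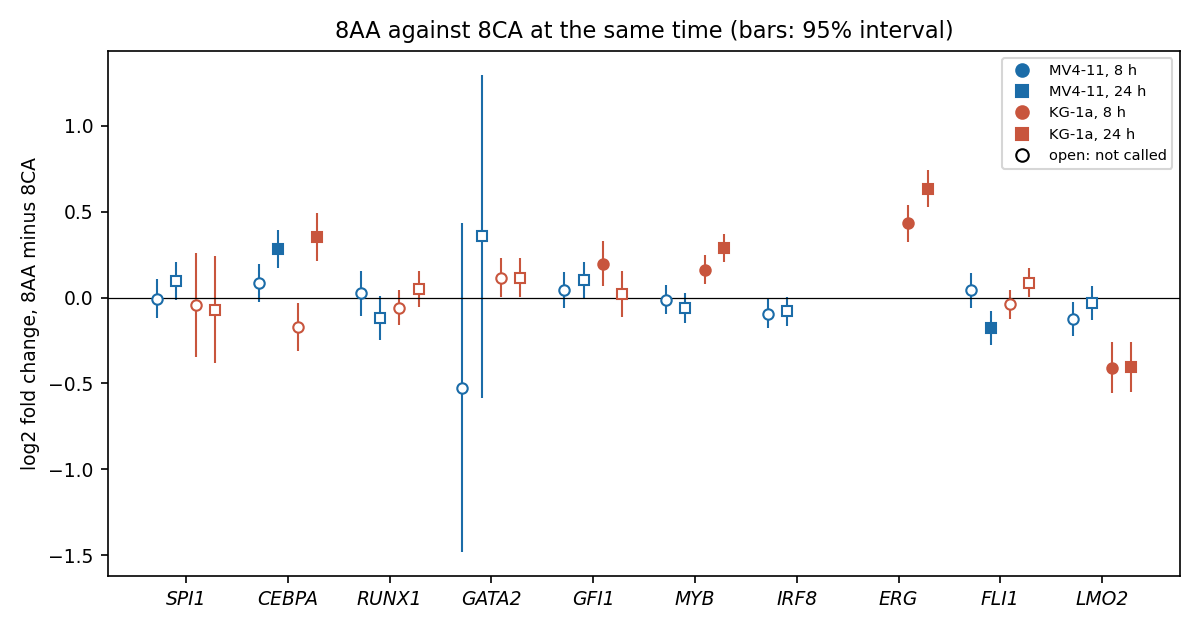
Log2 difference between 8AA and 8CA at the same dose and time for each gene, with 95% intervals, in MV4-11 and KG-1a at 8 h (circles) and 24 h (squares), filled where the adjusted p was below 0.05. In KG-1a ERG and MYB lie above 0 and LMO2 below 0 at both times, and the intervals of GATA2 in MV4-11 span from -1.48 to 1.30.

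Whether a response differed between 8 h and 24 h was tested as a difference of differences. In MV4-11 the 8CA log2 change of RUNX1 was higher at 24 h than at 8 h by 0.30 ± 0.0856 (edgeR adjusted p = 0.0239), the single call among 9 genes against 16.3% of all genes. With 8AA 0 passed by edgeR or DESeq2 against 4.63%, with FLI1 alone at an unadjusted p below 0.05. This RUNX1 call was lost without either untreated library of 24 h (0.29 and 0.34), untreated replicate A of 8 h (0.27), 8CA replicate A of 24 h (0.28) or 8CA replicate B of 8 h (0.24). In KG-1a, the 8CA log2 change of GATA2 was higher at 24 h than at 8 h by 0.28 ± 0.0766 (edgeR adjusted p = 0.0157). GATA2 was below the untreated level at 8 h and above it at 24 h. This was the only call, against 23.9% of all genes. It was lost without 8CA replicate A of 24 h (0.26), 8CA replicate B of 8 h (0.26), or untreated replicate A of 24 h (0.23) or of 8 h (0.21). With 8AA, CEBPA (0.58 ± 0.0926), GATA2 (0.28 ± 0.0760) and FLI1 (0.26 ± 0.0563) had higher log2 changes at 24 h than at 8 h (edgeR adjusted p = 0.000593, 0.0188 and 0.00447), against 18.3% of all genes. The GATA2 difference with 8AA was lost without 8AA replicate A of 8 h (0.25) or untreated replicate A of 24 h (0.23) or of 8 h (0.22). For ERG, MYB and LMO2, the genes that 8AA moved at both times in KG-1a, the difference was 0.07 (95% interval -0.09 to 0.22), 0.04 (-0.07 to 0.16) and 0.07 (-0.14 to 0.28). Without replicates A and B of 8AA at 24 h in turn, the called differences were 0.53 and 0.63 for CEBPA, 0.20 and 0.34 for GATA2, and 0.24 and 0.28 for FLI1, and that of LMO2 was -0.05 and 0.17.

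The response in MV4-11 was then set against that in KG-1a, over all 24 libraries. The 10 genes of this fit include IRF8, with 0 to 1 reads per KG-1a library, and ERG, with 0 to 6 per MV4-11 library. Their responses could not be compared between the lines, and none of the calls below is theirs. With 8CA at 8 h 0 of 10 genes passed by edgeR or DESeq2 (1.15% of 14055 genes passed by edgeR), MYB and FLI1 having an unadjusted p below 0.05. With 8AA at 8 h 5 did (11.1%), with 8CA at 24 h 2 did (11.2%) and with 8AA at 24 h 3 did (22.3%). GATA2 gave the largest of these differences, with log2 differences of -1.28 ± 0.348 with 8AA at 8 h, -1.79 ± 0.313 with 8CA at 24 h and -1.55 ± 0.303 with 8AA at 24 h (edgeR adjusted p = 0.0217, 0.000432 and 0.000517). The first was lost without MV4-11 8AA replicate B (-0.995) or either untreated MV4-11 library (-1.22 and -1.34). With 8AA at 8 h the log2 changes of CEBPA, LMO2 and FLI1 were higher in MV4-11, by 0.44 ± 0.0875, 0.40 ± 0.0832 and 0.31 ± 0.0605 (edgeR adjusted p = 0.00186, 0.00281 and 0.00142). That of MYB was lower, at -0.28 ± 0.0528 (edgeR adjusted p = 0.00119). CEBPA and LMO2 fell in KG-1a, and in MV4-11 they fell less and did not pass. With 8AA at 24 h the log2 change of MYB was again lower in MV4-11, at -0.23 ± 0.0528 (edgeR adjusted p = 0.00236). That of LMO2, which fell in both lines, was higher there at 0.24 ± 0.0824 (edgeR adjusted p = 0.0419). This LMO2 call was lost in 13 of 16 alternatives. Without KG-1a 8AA replicates A and B of 24 h in turn, the difference was -1.48 and -1.69 for GATA2 and -0.23 and -0.31 for MYB, all called, and 0.35 (called) and 0.05 (not called) for LMO2. The log2 change of RUNX1 with 8CA at 24 h was higher in MV4-11, by 0.35 ± 0.0793 (edgeR adjusted p = 0.00456).

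The proteins that work with these factors were read from 4 lists, 10 partners in complexes, 8 inhibitors, 19 relatives of the same families and 20 target genes. Beside their counts stand the shares of all genes at 24 h, where in MV4-11 8CA raised 21.2% and lowered 22.7%, and 8AA raised 13.9% and lowered 15.3%. In KG-1a 8CA raised 23.4% and lowered 24.0%, and 8AA raised 25.4% and lowered 26.6%. The median log2 change of all genes lay between 0.00 and 0.01 in these 4 comparisons. Among the partners, with 8CA at 24 h 3 of 9 tested rose and 1 fell in MV4-11, and 5 of 10 rose and 2 fell in KG-1a. With 8AA at 24 h 1 of 9 rose and 2 fell in MV4-11, and 3 of 10 rose and 2 fell in KG-1a. Their median log2 changes at 24 h were, for 8CA and then 8AA, 0.11 and 0.01 in MV4-11 and 0.17 and 0.08 in KG-1a. CREBBP, an acetyltransferase that MYB binds, rose in 6 of 8 comparisons, most with 8CA at 24 h (0.43 ± 0.0424 in MV4-11 and 0.48 ± 0.0461 in KG-1a). KDM1A, the demethylase that GFI1 recruits, fell in 6 of 8, with log2 changes between -0.28 and -0.24 where called. CBFB, the partner subunit of RUNX1, fell in 5 of 8, with -0.32 and -0.39 at 24 h with 8AA in MV4-11 and KG-1a. In MV4-11 the CBFB call at 24 h was lost without any of the 4 libraries (-0.41 to -0.24), by DESeq2 (-0.32) and with library size or upper-quartile scaling (-0.27 and -0.28). At 8 h it was lost by DESeq2 (-0.35), in the fit of the 8 h libraries alone (-0.34), with library size or upper-quartile scaling (-0.30 in both fits) and without 8AA replicate B or untreated replicate A (-0.20 and -0.17). The CBFB call with 8CA at 24 h in KG-1a (-0.29) was lost without replicate A of 8CA or of the untreated group (-0.27 and -0.24), and the CREBBP call with 8CA at 8 h in MV4-11 (0.21) without 8CA replicate B or untreated replicate A (0.19 and 0.18).

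Of the inhibitors, 1 of 7 tested rose and 2 fell with 8CA at 24 h in MV4-11 and 1 fell with 8AA, while in KG-1a 3 of 8 rose and 1 fell with 8CA and 5 rose with 8AA. In the same order the medians were -0.36 and 0.05 in MV4-11 and 0.15 and 0.32 in KG-1a. TRIB1, a pseudokinase that directs C/EBPA protein to degradation, had a pattern of its own. In MV4-11 at 24 h it fell by 0.72 ± 0.113 with 8CA and by 0.69 ± 0.114 with 8AA, and in KG-1a it fell by 0.58 ± 0.202 with 8CA at 24 h but rose by 1.08 ± 0.221 with 8AA at 8 h and by 0.86 ± 0.166 at 24 h. The 8CA call for TRIB1 in KG-1a was lost by DESeq2 (-0.58) and without 8CA replicate B, untreated replicate A or untreated replicate B (-0.43, -0.67 and -0.51).

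Enough reads for a test were found for 16 of the 19 relatives in MV4-11 and for 17 in KG-1a. At 24 h 5 rose and 4 fell with 8CA and 5 rose and 1 fell with 8AA in MV4-11, and 6 rose and 4 fell with 8CA and 8 rose and 2 fell with 8AA in KG-1a. Their medians, 8CA first, were -0.03 and 0.01 in MV4-11 and 0.08 and 0.15 in KG-1a. CEBPB, the C/EBP factor of monocytes and of emergency granulopoiesis, went in opposite directions with the compounds in KG-1a. It rose by 0.61 ± 0.103 at 8 h and 1.31 ± 0.0959 at 24 h with 8CA, and fell by 0.55 ± 0.113 and 0.47 ± 0.110 with 8AA. The 8 h call of CEBPB with 8CA was lost without either 8CA library (0.66 and 0.56) or untreated replicate B (0.48). IRF4, the closest relative of IRF8, rose in MV4-11 with 8AA by 0.48 ± 0.0819 at 8 h and 0.58 ± 0.0744 at 24 h, and with 8CA at 24 h by 0.25 ± 0.0754. The latter call was lost by DESeq2 (0.26) and without 8CA replicate B or untreated replicate B (0.20 and 0.24). In KG-1a IRF4 had at most 13 reads in any library, and its log2 change of 1.35 (95% interval 0.28 to 2.41) with 8AA at 24 h passed (edgeR adjusted p = 0.0336). The KG-1a call for IRF4 was lost by DESeq2 (1.37), with no filter (1.34), in the fit of the 24 h libraries alone (1.35), and without either 8AA library (1.34 and 1.35) or untreated replicate A (0.97). ETS1 rose by 0.44 ± 0.0397 with 8AA at 8 h in KG-1a and by 0.18 ± 0.0398 at 24 h, and fell there by 0.19 ± 0.0401 with 8CA at 24 h, while its 12 to 41 reads per library in MV4-11 went with a log2 change of -1.35 ± 0.312 with 8CA at 24 h.

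Among the 20 targets, 16 could be tested in MV4-11, and 15 in KG-1a. With 8CA at 24 h 4 rose and 7 fell in MV4-11 and 2 rose and 4 fell in KG-1a, and with 8AA at 24 h 6 rose and 1 fell in MV4-11 and 9 rose in KG-1a. The median log2 changes, 8CA first, were -0.16 and 0.11 in MV4-11 and -0.06 and 0.17 in KG-1a. KIT, the stem cell factor receptor and a target of GATA2 and MYB, rose with 8AA in both lines, by 0.77 ± 0.182 and 1.10 ± 0.177 at 8 h and 24 h in MV4-11 and by 0.56 ± 0.140 and 0.69 ± 0.155 in KG-1a, where the 8 h call was lost without untreated replicate A (0.40). CSF3R, the receptor for granulocyte colony stimulating factor, rose in MV4-11 with 8AA by 0.30 ± 0.0607 and 0.58 ± 0.0582, and in KG-1a fell by 0.24 ± 0.0656 at 8 h and rose by 0.16 ± 0.0624 at 24 h. In KG-1a the CSF3R call at 8 h was lost without 8AA replicate B or untreated replicate A (-0.19 in both fits), and that at 24 h by DESeq2 (0.16), with no filter (0.15), in the fit of the 24 h libraries alone (0.16), and without 8AA replicate A or either untreated library (0.08, 0.13 and 0.17). At 8 h with 8CA the 4 lists together had 3 calls of 48 genes tested in MV4-11 (4.58% of all genes rose and 5.77% fell) and 2 of 50 in KG-1a (0.7% and 0.181%), all of them rises and 2 in each line among the relatives. With 8AA at 8 h 13 rose and 7 fell in MV4-11 (13.6% and 15.6% of all genes), and 8 rose and 8 fell in KG-1a (16.7% and 18.0%).

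The named partners, inhibitors, relatives and targets called with 8AA at 24 h in KG-1a kept their direction without each of the 2 libraries of that group. Without replicate A and without replicate B in turn, the log2 change was 0.22 and 0.19 for CREBBP, -0.32 and -0.19 for KDM1A, -0.23 and -0.55 for CBFB, 0.70 and 0.99 for TRIB1, -0.61 and -0.36 for CEBPB, 0.17 and 0.18 for ETS1, and 0.70 and 0.67 for KIT, all still called. IRF4, as given above, was called in neither fit. CSF3R was at 0.08 and no longer called without replicate A and at 0.23 and called without replicate B.

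**Figure D5:**
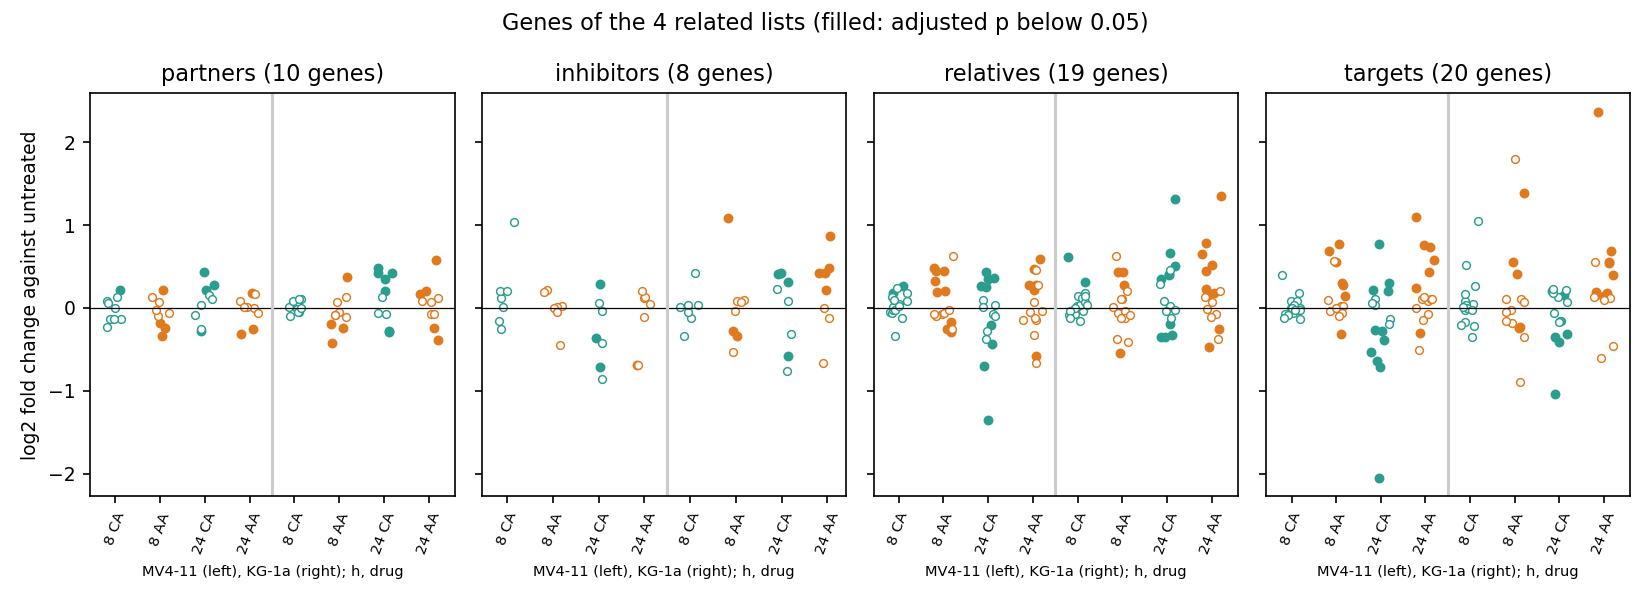
Log2 fold change against untreated of each tested gene among the partners, inhibitors, relatives and targets, with MV4-11 on the left and KG-1a on the right of each panel, ordered by time (8 or 24 h) and drug (CA 8CA, AA 8AA), filled where the adjusted p was below 0.05. Among the targets at 24 h in KG-1a, 9 of 15 rose and 0 fell with 8AA (25.4% and 26.6% of all genes). With 8CA 2 rose and 4 fell there (23.4% and 24.0%). In MV4-11 at 24 h 6 of 16 rose and 1 fell with 8AA (13.9% and 15.3%), and 4 rose and 7 fell with 8CA (21.2% and 22.7%).

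Genes whose levels ran most like those of each factor were found by the correlation of log2 CPM over the 24 libraries, after the mean of each line was taken off. FLI1 ran most like TMEM71 (r = 0.949) and SYNRG (0.944), GFI1 like DAG1 (0.922) and SOSTDC1 (0.829), LMO2 like PTPN9 (0.922) and TGFB1 (0.902), and RUNX1 like SLC39A10 (0.907) and the kinase gene CDK6 (0.906). MYB ran most like ATRN (0.898) and KBTBD7 (0.841), GATA2 like SDC4 (0.869) and S1PR3 (0.856), ERG like ZNF439 (0.851) and FXYD6 (0.721), and CEBPA like PPP1R9B (0.847) and LINC01963 (0.807). The highest values were lower for SPI1 (SLC39A4, 0.761, and RAB34, 0.739) and IRF8 (MYO1E, 0.651, and HEBP2, 0.640). IRF8 had 0 to 1 reads per KG-1a library, ERG 0 to 6 and GATA2 7 to 30 per MV4-11 library, and SPI1 123 to 161 per KG-1a library. Counting noise in those libraries limits the values of these genes, which are not on a par with the others. The points share libraries, drug groups and depth, and all these correlations are a description with no test.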

How the data were processed

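Total RNA was extracted from each cell group with a QIAGEN RNeasy Micro kit and sequenced. The submitters' processing notes name Trimmomatic, STAR 2.6.0, HTSeq 0.11.1 and edgeR, and the builds hg19 and hg38, with no role or order. The authors deposited a single table of raw read counts per gene, not normalized, with 1 column per library. The ends of its genes did not match GRCh38: of 22344 genes found by symbol and chromosome in GENCODE 29, 4.27% had either end within 1000 bases, and none of the 10 factors did. Its annotation, and whether strand was used in counting, is not given in the sources used here.

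Counts were analysed in R 4.3.3 with edgeR 4.0.16. Genes were kept by filterByExpr (minimum count 10), scaled by TMM and tested by the quasi-likelihood test, with Benjamini-Hochberg adjustment over every gene of the fit and a threshold of 0.05. Drug, compound and time effects were fitted over the 12 libraries of each line (12800 genes for MV4-11, 12711 for KG-1a) and line effects over all 24 (14055 genes). Intervals are 95% intervals of the log2 fold change, and the counting intervals of ratios are exact binomial and cover counting error only. Library totals ran from 18633963 to 24520078 reads, a depth that limits precision only for genes with few reads. Alternatives were other scalings, other filters, the libraries of a time point alone, the replicate letter as a block, DESeq2 1.42.0, and leaving out each library. The scripts were tested on simulated counts.

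The 10 genes and the lists of partners, inhibitors, relatives, targets and cell type markers were chosen with earlier results of these data known. From each list the text names up to 3 genes with the largest change among those called in at least 4 of the 8 comparisons with untreated cells, and for each factor the 2 genes most like it in log2 CPM (prior count 2). A target gene that this rule names is not reported here. The protein sequences and the start-site windows of SPI1, FLI1 and LMO2 were not analysed here.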

Additional observations from a re-analysis of the deposited data

Results flagged for a closer look

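In 15 cases the difference between 2 responses of a factor passed edgeR's test of that difference itself, and they are given here as log2 differences with no explanation. Between 24 h and 8 h in the same line, the 8CA response differed by 0.303 for RUNX1 in MV4-11 and by 0.278 for GATA2 in KG-1a. In KG-1a the 8AA response differed between these times by 0.584 for CEBPA, 0.278 for GATA2 and 0.261 for FLI1.

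Between MV4-11 and KG-1a at 8 h, the 8AA response differed by 0.436 for CEBPA, -1.28 for GATA2, -0.278 for MYB, 0.311 for FLI1 and 0.395 for LMO2. At 24 h the 8CA response differed by 0.351 for RUNX1 and -1.79 for GATA2, and the 8AA response by -1.55 for GATA2, -0.23 for MYB and 0.235 for LMO2. The GATA2 differences between the lines rest on 7 to 30 reads per library in MV4-11. As given above, some of the calls in this section were lost when a library was left out. Among them were RUNX1 and GATA2 with 8CA and GATA2 with 8AA between the times. Between the lines they included GATA2 with 8AA at 8 h and LMO2 with 8AA at 24 h.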

How the results depend on the processing

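No log2 change of a factor that passed the test changed its direction and passed in the opposite direction under any alternative run. The log2 changes kept their side of the threshold in 219 of 222 cases with DESeq2 size factors, 203 of 222 with library size only, 208 of 222 with upper-quartile scaling, 211 of 222 with no filter, 190 of 195 with at least 10 counts in every library, 160 of 168 with only the libraries of the time point and 203 of 212 by DESeq2's Wald test. Leaving out a library kept 1111 of 1192, with 72 calls lost and 9 gained. The cause of the changes below was not tested.

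With 8CA at 8 h in MV4-11, 1 factor was called, against 2 with no filter or with the replicate block, and 0 to 1 when a library was left out. With 8AA at 24 h in MV4-11, 2 were called, against 4 with library size only or upper-quartile scaling, and 0 to 2 when a library was left out. With 8CA at 8 h in KG-1a, 0 were called, against 1 by DESeq2, with no filter, with the libraries of the time point or with the replicate block. Leaving out a library gave 1 to 2 of 2 with 8AA at 8 h in MV4-11, 4 to 6 of 7 with 8CA at 24 h in MV4-11, and 1 to 2 of 3 with 8CA at 24 h in KG-1a. It gave 1 to 2 of 2 for 8AA against 8CA at 24 h in MV4-11, and 2 to 3 of 4 for that difference at 8 h in KG-1a. The 4 in MV4-11 with 8CA at 24 h came without 8CA replicate A, which lost SPI1, MYB and LMO2, and the 2 in KG-1a without 8CA replicate B. The difference of the 8CA response between times in MV4-11 gave 1 factor, 4 with the replicate block and 2 with 4 other settings, and untreated KG-1a cells gave 2 between times, 1 by DESeq2 and 4 with the replicate block.

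Letters A and B mark the libraries of each group, but nothing says that a letter marks a shared culture or day, and the correlation of same-letter deviations between treated and untreated pairs was -0.0846 to 0.159. The replicate block kept 211 of 222 calls or non-calls, lost none and gained 11.

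Scaling moved the balance of all called genes. With 8AA at 24 h, 47.6% of called genes were higher in MV4-11, against 63.8% with library size only and 59.9% with upper-quartile scaling, and in KG-1a 48.8% against 64.5% and 61.2%. At 8 h in MV4-11 the share was 44.2% with 8CA, against 61.7% and 58.4%, and 46.6% with 8AA, against 61.2% and 61.9%. With library size only it went from 48.2% to 58.9% for 8CA at 24 h in MV4-11 and from 48.1% to 58.2% for 8AA at 8 h in KG-1a. GATA2 in MV4-11 was not tested with at least 10 counts in every library or by DESeq2, which gave it no adjusted p. The same alternatives were run for the named partners, inhibitors, relatives and targets, a step added after the data were seen. Depth limited GATA2 in MV4-11, SPI1 in KG-1a, ERG in MV4-11 and IRF8 in KG-1a, the last 2 of which could not be tested.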
